A study of Mus musculus with 20 samples.

Results

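Crabp2 encodes cellular retinoic acid binding protein 2, a small cytosolic carrier of retinoic acid. Its RNA was followed through 1 transcript model (uc008ptk.1) of the 55419 counted, the only model that carries the symbol, among 10334 named symbols. Its chromosome contacts were followed by chromosome conformation capture carbon copy (5C), in which primers for single HindIII restriction fragments are joined and amplified when the fragments were ligated to each other. The gene (mm9, chromosome 3, 87752615 to 87757294) lies inside 1 fragment (87744672 to 87758201, 13530 bp), which holds no other named gene. That fragment carries a reverse primer and could pair with any of the 101 forward primers of the Nestin region (87282064 to 88377995). 99 of these pairs had a count, out of 10237 pairs with a count in the region and 96467 in all 7 regions. The gene was picked by its RNA values, which were higher in iPS than in ES cells in both media, so its RNA in iPS against ES cells and against their source cells is given as a description without a test. The 5C values played no part in that choice.

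The study compared 5 groups of mouse cells with 2 RNA and 2 5C libraries each. V6.5 embryonic stem (ES) cells are 1 male line of 129SvJae x C57BL/6 background, grown with LIF, or in serum-free 2i medium with LIF and the kinase inhibitors CHIR99021 and PD0325901. Neural progenitor cells (NPC) came from whole brains of Sox2-eGFP mice of the same background at postnatal day 1 and were grown as neurospheres and then plated. Induced pluripotent stem (iPS) cells were made from such NPC, carry Sox2-eGFP, and were grown in medium with LIF and 15% fetal bovine serum or in the 2i medium. ES and iPS cells were expanded on inactivated mouse embryonic fibroblasts and moved to gelatin to remove these feeders. The Sox2-eGFP allele was present in NPC and iPS cells and not named for ES cells, so that allele, line and cell origin cannot be told apart in comparisons with ES cells. A serum content is named for iPS cells outside 2i and not for ES cells. Any difference in medium outside 2i therefore cannot be told apart from these either. Whether replicates were separate cultures is not stated in the labels. The p-values therefore reflect only the variation among these libraries, which may be technical.

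Retinoic acid is made from vitamin A in a pair of oxidation steps, by retinol dehydrogenases and then by retinaldehyde dehydrogenases of the Aldh1a family. CRABP2 carries it to the nucleus and hands it to retinoic acid receptors, which bind DNA with retinoid X receptors, while CYP26 enzymes break it down. In embryonic stem cell cultures, retinoic acid is a strong differentiation signal, and Crabp2 is itself a known target of the pathway.

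Reads assigned to a model ranged from 1.15M to 17.29M a library, and 5C totals from 10.51M to 26.53M. The ES libraries outside 2i were the deepest in 5C, at 26.53M and 25.79M, and all others had 10.51M to 14.89M. The part of this depth in the 5C contrasts with ES cells was not tested. Reads in no model made up 26.54% to 86.64% of the uniquely aligned reads and were most frequent in NPC replicate 1 and ES replicate 2. Of 12 measured pluripotency markers, 10 had no read in either NPC library, and the marker sum was 5790 to 7990 CPM in the ES and iPS libraries against 257 to 261 in NPC. The 8 measured neural progenitor markers summed to 7510 to 9040 CPM in NPC and to at most 321 elsewhere. By these sums, each library carried the markers of its labelled cell type, but not every single marker followed them. From NPC to iPS cells, 10 pluripotency markers rose and 1, Sox2, fell, from 251 and 247 to 111 and 117 CPM. Esrrb had 0 and 0.681 CPM in iPS cells and was not called. Of the neural progenitor markers, 7 fell and 1, Sox1, rose, from 80.4 and 101 to 270 and 240 CPM. Between iPS and ES cells, 2 of the 12 pluripotency markers rose and 10 fell, and in 2i medium 3 rose and 3 fell (52.9% and 25.3% of all models called).

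Crabp2 RNA was highest in iPS cells and close to absent in NPC. Levels in CPM (reads scaled to the effective library size) were 337 and 390 in iPS cells and 126 and 138 in iPS cells in 2i. ES cells had 17.8 and 16.3 CPM, and ES cells in 2i had 6.77 and 6.69. The NPC libraries held 1 read and no read. In order of level, iPS cells stood above iPS cells in 2i, then ES cells, ES cells in 2i and NPC, and no library of a group overlapped with a library of the next group. As a mean and SD over 2 libraries, the levels were 363 ± 37.3, 132 ± 8.58, 17.1 ± 1.04, 6.73 ± 0.0563 and 0.419 ± 0.592 CPM.

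The 2 iPS-to-ES ratios, which chose the gene, were nearly equal in size in the 2 media. Mean CPM was 21.3-fold higher in iPS than in ES cells, with ratios between single libraries of 18.9 to 23.9. In 2i medium it was 19.7-fold higher, with single ratios of 18.7 to 20.7. Even the iPS cells in 2i exceeded the ES cells outside 2i, by 7.76-fold in mean CPM. Against NPC, with 1 read over both libraries, the ratio was 1700 for iPS cells (3923 reads) with a 95% counting interval of 305 to 67100. For ES cells (379 reads), it was 81.5 with an interval of 14.5 to 3230. These intervals cover counting error only, since reads were amplified and carried no molecular identifiers.

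**Figure D1:**
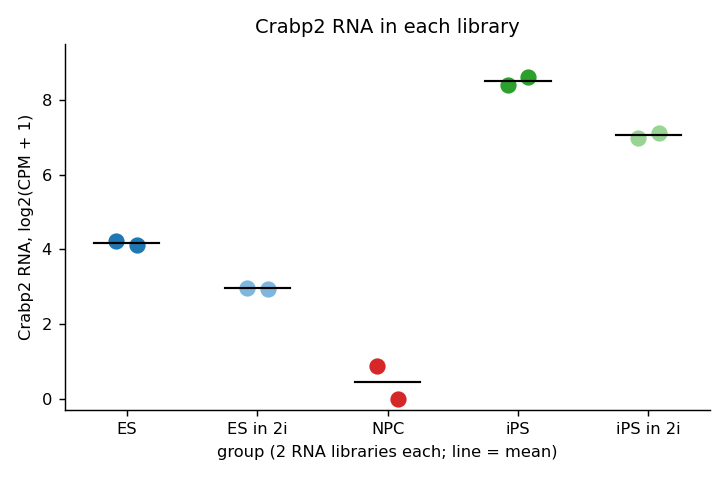
Crabp2 RNA as log2(CPM + 1) in each of the 10 RNA libraries (points) with the mean of each group (line). The iPS libraries, at 337 and 390 CPM, sit above all others, and the NPC libraries, with 1 and 0 reads, sit at the floor.

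In contrasts that the choice of the gene did not use directly, Crabp2 was lower in NPC than in ES cells (edgeR quasi-likelihood test with Benjamini-Hochberg adjustment, adjusted p = 3.72e-11). It was also lower in 2i medium in both cell types. The fall was 1.36 ± 0.18 (log2 fold change ± SE) in ES cells (edgeR adjusted p = 3.67e-07) and 1.45 ± 0.14 in iPS cells (edgeR adjusted p = 3.22e-10), or 2.54-fold and 2.74-fold in mean CPM. The 2i response of iPS cells minus that of ES cells, -0.09 in log2, equals the difference of the 2 iPS-to-ES values that chose the gene and is given without a test. The other contrasts share libraries with the ones that chose the gene. Of all 11031 models tested, 61.0% were called between NPC and ES cells, 24.5% in the 2i response of ES cells and 42.6% in that of iPS cells. The library with more reads in no model had the lower Crabp2 level within ES cells (81.52% and 16.3 CPM against 26.54% and 17.8), iPS cells (75.76% and 337 against 68.38% and 390) and iPS cells in 2i (65.02% and 126 against 37.38% and 138). In ES cells in 2i and in NPC, it had the higher one, and the part of this share in the Crabp2 level was not tested.

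Markers of other cells that the cultures could hold moved with Crabp2 in part. Of the 10 measured markers of feeder fibroblasts, 7 rose and none fell in iPS against ES cells, and 8 rose and none fell in 2i medium (25.9% and 13.7% of all models called higher). Their summed level was 2850 to 3080 CPM in iPS cells, 1280 to 1470 in ES cells, 976 to 1010 in iPS cells in 2i, 482 to 494 in ES cells in 2i and 133 to 166 in NPC. The fibroblast sum was lower in iPS cells in 2i than in ES cells outside 2i, and Crabp2 was higher. Acta2 and Tagln, the largest members in ES cells, were lower in these iPS cells (mean 366 and 137 CPM against 755 and 408). Thy1, Twist1 and Twist2 were lower as well. Col1a1, Col1a2, Col3a1 and Loxl1 were higher (mean 80.4, 86.5, 229 and 35.0 CPM against 40.3, 40.4, 17.4 and 24.6), and Fbn1 was nearly equal. Only Twist2 of the 10 was at 0, in NPC. In the 2i response of ES cells, where Crabp2 fell, 6 of the 10 fell and 2 rose (13.2% and 11.3% of all models), and in that of iPS cells 8 fell and 1 rose (21.5% and 21.1%). The 5 measured trophoblast and epithelial markers, mostly simple keratins, summed to 946 to 1150 CPM in iPS cells, 351 to 399 in ES cells, 79.3 to 85.9 in iPS cells in 2i, 41.0 to 43.7 in ES cells in 2i and under 1 in NPC. In iPS against ES cells, 3 of these 5 rose and 1, Ascl2, fell (25.9% and 26.9% of all models), and in 2i 4 rose and none fell (13.7% and 11.6%). In the 2i response, all 5 fell in ES cells (13.2%), and in iPS cells 4 fell and Ascl2 rose (21.5% and 21.1%). The 3 measured neuronal markers summed to 1100 to 1310 CPM in iPS, 361 to 414 in ES, 527 to 554 in iPS in 2i, 426 to 461 in ES in 2i and 36 to 38.8 in NPC. Of these 3, Tubb3 and Stmn2 rose in iPS against ES cells (25.9% of all models called higher) and Elavl3 was not called. In 2i only Tubb3 rose (13.7%). The 4 measured extraembryonic endoderm markers, mostly Lama1, went the other way. They summed to 125 to 130 CPM in ES, 15.7 to 21.4 in iPS, 87.1 to 91.3 in ES in 2i and 29.3 to 32.4 in iPS in 2i. All 3 tested ones fell in iPS against ES cells (26.9% of all models called lower). The 3 measured mesoderm markers summed to 12.8 to 14.8 CPM in iPS, 9.74 to 9.82 in ES and at most 3.25 elsewhere. The part of feeder, epithelial, neuronal, endodermal or mesodermal cells in the Crabp2 level was not tested. In bulk RNA, more cells of a type and more RNA per cell cannot be told apart.

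The retinoid pathway was described with 6 lists holding 64 genes, of which 35 had a named row and 31 besides Crabp2 passed the low-count filter. In iPS against ES cells, 16 of the 31 rose and 6 fell (median log2 0.76 against -0.03 over all models), beside a background of 25.9% of models called higher and 26.9% lower. In 2i medium, 3 rose and 2 fell, and 26 did not pass (background 13.7% and 11.6%). In NPC against ES cells, 10 rose and 18 fell (background 27.3% and 33.7%), and from NPC to iPS cells 18 rose and 5 fell (background 29.3% and 22%). The median for NPC against ES was -1.54, or -1.22 with the 5 genes without a read in NPC placed at the bound that 3 reads over both NPC libraries allow. In the 2i response, 3 rose and 10 fell in ES cells (background 11.3% and 13.2%) and 4 rose and 16 fell in iPS cells (background 21.1% and 21.5%). The calls in either direction went from 5 to 2 between iPS and ES cells in 2i without iPS in 2i replicate 2, and from 13 to 8 in the response of ES cells without ES replicate 1. In the response of iPS cells they went from 20 to 13 without iPS replicate 1 and to 11 without iPS in 2i replicate 2.

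Among the binding proteins, the paralog of Crabp2 did not rise. Crabp1, the other cytosolic retinoic acid carrier, had 29.8 and 35.6 CPM in ES and 25.6 and 24.2 in iPS cells (edgeR adjusted p = 0.0947), and it was lower in iPS than in ES cells in 2i, by 0.81 ± 0.18 in log2 (edgeR adjusted p = 0.00148). Fabp5, a fatty acid carrier that can deliver retinoic acid to a different nuclear receptor, had the opposite order to Crabp2 in NPC. Its levels were 782 and 902 CPM in NPC, 98.2 and 99.3 in ES and 197 and 190 in iPS cells. In 2i, ES and iPS cells had 50.7 to 54.3 CPM and did not differ detectably (log2 0.01 ± 0.13). Rbp7 stayed at or below 2.63 CPM in every library.

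Crabp2 belongs to the intracellular lipid binding family, whose muscle and heart member Fabp3 went the other way in iPS cells. Fabp3 had 320 and 370 CPM in ES, 15.1 and 14.1 in iPS, and 150 to 192 in both kinds of cells in 2i. It was lower by 4.56 ± 0.17 in log2 in iPS than in ES cells (edgeR adjusted p = 1.11e-19), and in 2i the difference was 0.11 ± 0.13 (edgeR adjusted p = 0.576). Of the 5 tested members besides Crabp2, 2 rose in iPS against ES cells, Fabp5 among them, and 1 fell (background 25.9% and 26.9%), and in 2i 1 fell, Crabp1, and none rose (background 11.6% and 13.7%). These shares of 5 genes are near the background.

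Of the synthesis genes, Aldh1a2 had the pattern closest to Crabp2. Aldh1a2 (chromosome 9, 71063596 to 71144050), the main retinaldehyde dehydrogenase of the early embryo, had 4.60 and 5.53 CPM in ES, 3.95 and 4.35 in ES in 2i, 97.7 and 88.0 in iPS and 20.9 and 24.2 in iPS cells in 2i. It had no read in NPC and was at least 7.38-fold lower there than in ES cells. The groups of ES and iPS cells did not overlap in either medium. The rise in iPS against ES cells was 4.25 ± 0.21 in log2 (edgeR adjusted p = 2.19e-16) and 2.45 ± 0.20 in 2i (edgeR adjusted p = 1.78e-10). It responded to 2i in iPS cells, by -2.03 ± 0.17, and not detectably in ES cells, at -0.23 ± 0.24 (edgeR adjusted p = 0.537), and the difference of these responses passed the test (-1.80 ± 0.29, edgeR adjusted p = 2.46e-05). Rdh10, the main embryonic retinol dehydrogenase, had 24.8 and 20.0 CPM in ES and 19.2 and 18.6 in iPS cells, a difference of -0.28 ± 0.20 that did not pass (edgeR adjusted p = 0.256). Adh5, an alcohol dehydrogenase, fell by 1.31 ± 0.13 in iPS against ES cells, and Aldh1a3, at or below 1.74 CPM in ES and iPS cells, fell as well.

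Cyp26a1, the retinoic acid hydroxylase and a classical target of the pathway, was low throughout. Its CPM were 2.58 and 1.84 in ES, 7.42 and 8.34 in iPS, 0.626 and 0.779 in ES in 2i and 1.64 and 0.913 in iPS cells in 2i, with no read in NPC. The rise in iPS cells was 1.73 ± 0.38 (edgeR adjusted p = 2.81e-04), and in 2i it was 0.74 ± 0.53 and did not pass (edgeR adjusted p = 0.329). It fell in 2i by 1.73 in ES and by 2.73 in iPS cells.

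The receptors gave smaller differences. Rara had 5.5 and 7.37 CPM in ES and 19.8 and 11.9 in iPS cells, a rise of 1.36 ± 0.31 (edgeR adjusted p = 4.80e-04). Rarg had 8.31 and 9.22 CPM in ES and 12.6 and 12.4 in iPS cells, a difference of 0.54 ± 0.25 that did not pass (edgeR adjusted p = 0.0749). Rxra, the common dimer partner, had 35.1 and 50 CPM in ES, 83.3 and 79.3 in iPS and 128 and 125 in NPC, and it rose by 0.98 ± 0.16 in iPS against ES cells (edgeR adjusted p = 3.80e-06). In 2i medium, none of these 3 receptors passed the test between iPS and ES cells. Of the 7 co-regulators, 3 rose and 2 fell in iPS against ES cells, near the background of 25.9% and 26.9%. The coactivator gene Ncoa3 had the widest change among the well counted ones, from 421 and 418 CPM in ES to 93.0 and 115 in iPS cells, and it had 290 and 316 CPM in iPS cells in 2i.

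Among 12 measured genes known as retinoic acid targets, 9 rose and 2 fell in iPS against ES cells (background 25.9% and 26.9%). In 2i medium 2 rose and none fell, near the background of 13.7% and 11.6%. Tgm2, encoding tissue transglutaminase, had 7.91 and 8.69 CPM in ES, 53.2 and 62.8 in iPS, 3.57 and 4.35 in ES in 2i and 7.38 and 6.70 in iPS cells in 2i. Its rise was 2.83 ± 0.22 (edgeR adjusted p = 3.20e-12) and 0.81 ± 0.25 in 2i (edgeR adjusted p = 0.0171). Hoxa4, a homeobox gene of the HoxA cluster, had 0.730 and 0.527 CPM in ES, 32.4 and 25.7 in iPS, and 1.02 and 1.42 in iPS cells in 2i. Its rise outside 2i was 5.37 ± 0.37 (edgeR adjusted p = 2.94e-13). Hoxb4 and Cdx1 rose by 1.99 and 1.63. The 2 that fell, Gbx2 and Nr0b1, are also expressed in pluripotent cells, and Nr0b1 went from 287 and 353 CPM in ES to 108 and 93.5 in iPS cells. In the 2i response of iPS cells, 9 of the 12 fell and 1 rose (background 21.5% and 21.1%).

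**Figure D2:**
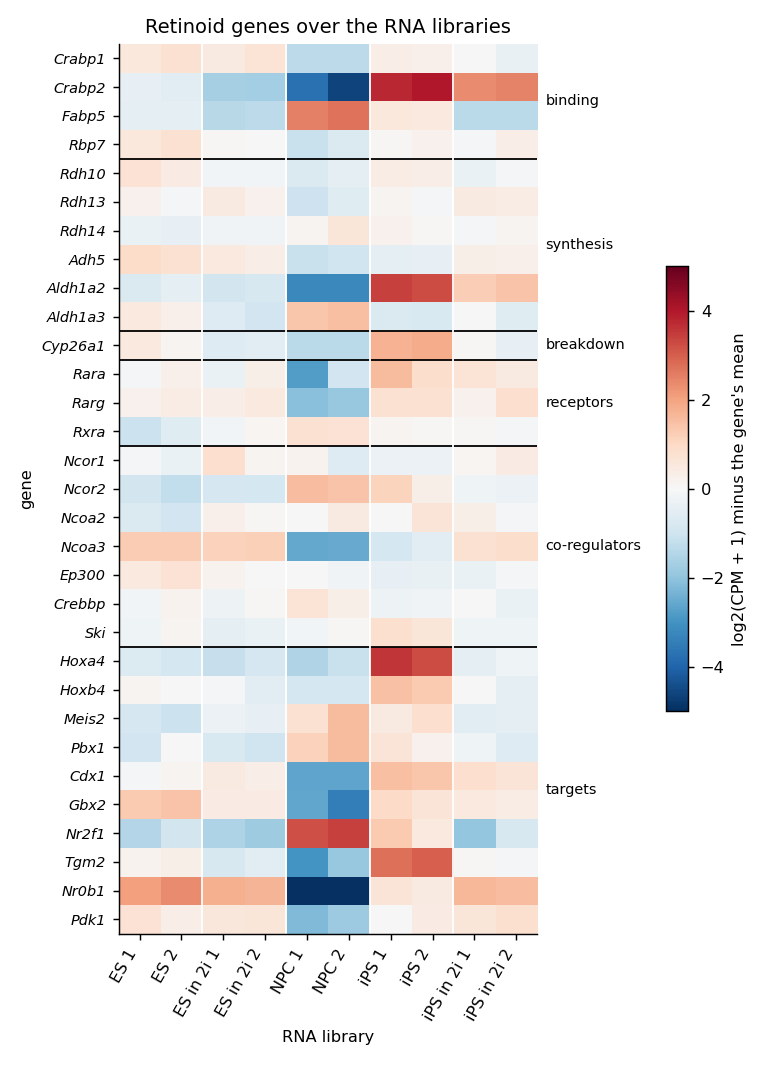
Retinoid genes by role (rows), 1 gene of the lists left out, in each RNA library (columns), as log2(CPM + 1) minus the mean of that gene over the 10 libraries (red higher, blue lower, colours saturating beyond 5 in size). Crabp2 and Aldh1a2 are red in all 4 iPS libraries, whereas Tgm2 and Hoxa4 are highest in the 2 iPS libraries outside 2i.

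Among the 8 models whose log2 CPM was most like that of Crabp2 over the 10 libraries, out of 9371 other symbols, were Mmp9, Tspo, Gcnt3, Klk1, Aldh1a2, Cercam and Pqlc3, with Pearson r from 0.971 to 0.99. These correlations describe 5 groups of 2 libraries that share depth and composition. Gcnt3, a glycosyltransferase gene of mucin synthesis, had no read in NPC, 202 and 212 CPM in iPS, 53.3 and 55.8 in iPS in 2i, and 5.32 to 10.0 in the ES libraries of both media. Klk1, a kallikrein gene, had 252 and 283 CPM in iPS and 45.9 and 44.1 in iPS cells in 2i, against 2.51 to 3.95 in the ES libraries. Mmp9, a matrix metalloproteinase gene, had the highest r and a narrower range, from 0.290 CPM in NPC to 17.5 in iPS cells. By Spearman's rank correlation, 2 of the 8 remained among the 8 highest, Mmp9 and Gcnt3.

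Crabp2 was picked by its difference between iPS and ES cells in both media. No tested neighbour had as large a difference in either medium, a ranking that this choice favours. In the Nestin region, 22 other named genes were tested, of which 8 rose and 3 fell in iPS against ES cells (background 25.9% and 26.9%) and 3 rose and 2 fell in 2i (background 13.7% and 11.6%). The shares in 2i are near the background. Their log2 differences ran from -1.80 to 2.82 and from -0.85 to 1.48. Isg20l2, a ribosome processing exonuclease gene whose row ends 8.0 kb below Crabp2, had 345 and 304 CPM in ES and 381 and 356 in iPS cells (edgeR adjusted p = 0.233). Hdgf, a growth factor gene 32.6 kb below, had 1780 and 1800 CPM in ES and 2060 and 1990 in iPS cells (edgeR adjusted p = 0.229). Both were lower in NPC than in ES cells, by 1.09 and 1.18 in log2. BC023814 and Mrpl24 lie between them and were at or below 5.33 CPM in every library.

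On the other side, Nes, the intermediate filament gene of neural progenitors, starts 17.7 kb above Crabp2 and changed oppositely in NPC. Its named model had 3.35 and 4.06 CPM in NPC and at most 0.619 elsewhere, a rise of 4.00 ± 0.78 against ES cells (edgeR adjusted p = 4.92e-05). Bcan, a brain proteoglycan gene 34.2 kb above, had 198 and 284 CPM in NPC and at most 0.790 elsewhere. Gpatch4, 89.7 kb above, was at or below 1.70 CPM and was not tested, and Apoa1bp, 103.2 kb above, rose from 63.9 and 70.8 CPM in ES to 107 and 106 in iPS cells. Lmna, the nuclear lamin A gene 527.8 kb above, was the neighbour with the largest rise in iPS cells, from 48.5 and 47.1 to 373 and 306 CPM (2.82 ± 0.14 in log2, edgeR adjusted p = 2.10e-16). In 2i it had 25.9 and 27.2 CPM in ES and 57.6 and 59.1 in iPS cells, a rise of 1.14 ± 0.14.

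**Figure D3:**
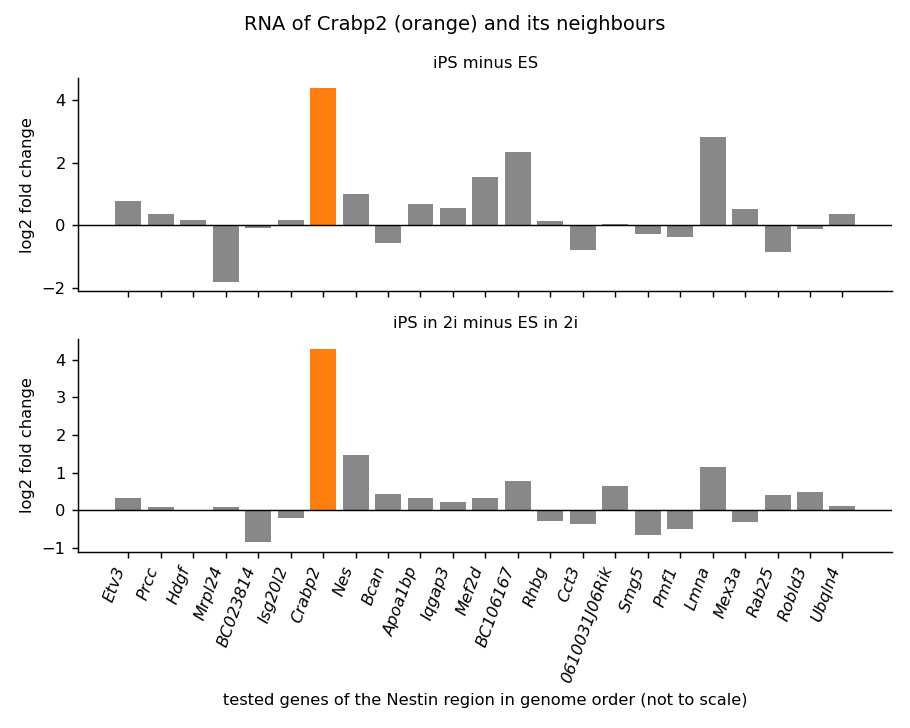
Log2 fold changes of RNA for the tested genes of the Nestin region in genome order, iPS against ES cells (top) and the same in 2i medium (bottom), with Crabp2 in orange. Crabp2, which was picked by these contrasts, has the highest bar in both panels, at 4.39 and 4.30. Lmna, at 2.82 and 1.14, is high mainly in the top one.

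The Crabp2 fragment had more contacts on its higher-coordinate side, towards Nes, than on its lower-coordinate side, towards Isg20l2 and Hdgf, in every group. Contacts were set against an expected count from the total of the same library, region and distance class. This count corrects neither for the primer or fragment nor for distance within a class. The nearest partner lay 7.1 kb away on the higher side and 14.1 kb away on the lower. The part of these features in the difference between the sides was not tested. The count over expected on the higher side was 1.61 to 2.28 in the 10 libraries, and on the lower side 0.378 to 0.96. By expectation, 51.6% to 52.6% of the counts would fall on the lower side. The measured share was 31.9% and 33.6% in ES, 28.2% and 30.7% in ES in 2i, 18.3% and 15.1% in NPC, 30.2% and 31.7% in iPS and 31.5% and 31.6% in iPS cells in 2i. The NPC libraries thus had the lowest shares of all 10.

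On its lower side, the Crabp2 fragment had fewer contacts in NPC than in ES or iPS cells. Summed over the lower side, count over expected was 0.96 and 0.945 in ES, 0.391 and 0.378 in NPC, 0.743 and 0.796 in iPS, 0.785 and 0.848 in ES in 2i and 0.677 and 0.695 in iPS cells in 2i. NPC lay below every other library, and iPS libraries lay between NPC and ES libraries. The fall in NPC against ES cells was 1.31 ± 0.13 in log2 (edgeR adjusted p = 5.10e-05, 21.0% of the 1539 lower-side totals called lower). It was the lowest value of the 202 lower-side totals in the Nestin region. The rise from NPC to iPS cells was 1.00 ± 0.13 (edgeR adjusted p = 5.75e-04, 15.4% called higher). Between iPS and ES cells the difference was -0.31 ± 0.13 and did not pass (edgeR adjusted p = 0.108, 22.6% called). This split by side was chosen after the single pairs had been seen.

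On the higher side, the sums were 2.25 and 2.07 in ES, 1.86 and 2.28 in NPC, 1.90 and 1.87 in iPS, 2.17 and 2.08 in ES in 2i and 1.61 and 1.64 in iPS cells in 2i. The NPC libraries enclosed the ES libraries, and the difference was -0.06 ± 0.13 (edgeR adjusted p = 0.711, 46.4% of 1538 higher-side totals called). No contrast passed on this side, and the difference between the 2 sides was not itself tested. Over both sides together, the total was lower in NPC than in ES cells by 0.35 ± 0.11 (edgeR adjusted p = 0.0259, 43.6% of 1547 fragments called), and this call was lost without ES replicate 1, ES replicate 2 or NPC replicate 1 (adjusted p 0.153, 0.0844 and 0.159). Between iPS and ES cells the total differed by -0.23 ± 0.11 (edgeR adjusted p = 0.147, 23.9% called) and in 2i by -0.35 ± 0.11 (edgeR adjusted p = 0.396, 0.0% called).

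**Figure D4:**
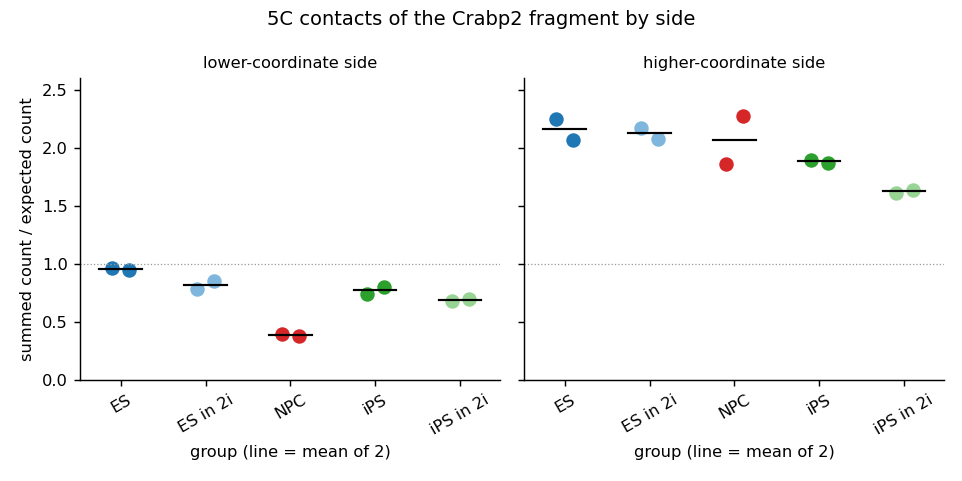
Summed 5C count over expected count of the Crabp2 fragment in each 5C library (points, with group means as lines), for partners at lower and at higher coordinates; the dotted line marks 1. On the lower side the NPC libraries, at 0.391 and 0.378, lie below all others, and on the higher side NPC spans 1.86 to 2.28 around the ES values.

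The adjoining fragments on both sides of Crabp2 went the other way. Within 50 kb, 18 other fragments had a lower-side total, of which 2 rose and 4 fell in NPC against ES cells, between -0.80 and 1.21 in log2 (background 26.7% higher and 21.0% lower). The adjoining fragment at lower coordinates, which holds part of Isg20l2 (87738123 to 87744670), rose by 1.21 (edgeR adjusted p = 5.95e-04) and exceeded the ES level in iPS cells too, by 1.43 (edgeR adjusted p = 4.81e-04). The adjoining fragment at higher coordinates (87758203 to 87758895), without a named gene, rose by 0.92 (edgeR adjusted p = 0.00675). Its lower-side total includes its pair with the Crabp2 fragment. Neither rise was confined to the lower side. On the higher side, these 2 fragments rose in NPC by 1.64 and 0.81 (edgeR adjusted p = 8.22e-05 and 0.018, 46.4% of higher-side totals called).

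At the level of single pairs, 94 of the 99 pairs had a mean count of at least 10 and were tested, 42 on the lower and 52 on the higher side. In NPC against ES cells, 24 pairs fell and 1 rose (background 9.39% of 75889 pairs called lower and 8.62% higher). Of the pairs that fell, 18 lay on the lower side, where the median log2 change was -1.06, and 6 on the higher side, where it was -0.32, against -0.01 over all pairs. The pair with the smallest adjusted p joined Crabp2 to the fragment of BC023814 22.1 kb below (87727606 to 87731027). Its count over expected was 0.51 and 0.507 in ES, 0.165 and 0.148 in NPC and 0.464 and 0.522 in iPS cells, so that iPS and ES libraries overlapped and NPC lay apart. The fall was 1.70 ± 0.27 (edgeR adjusted p = 1.76e-04) and the rise to iPS cells 1.65 ± 0.27 (edgeR adjusted p = 6.62e-04), while iPS against ES cells gave -0.05 ± 0.26.

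Other pairs that fell in NPC reached further. The pair with a fragment 145.9 kb below (87603867 to 87607305) had a count over expected of 2.47 and 2.31 in ES, 0.697 and 0.64 in NPC and 1.25 and 1.17 in iPS cells, a fall of 1.84 ± 0.30 in NPC (edgeR adjusted p = 2.75e-04). In this pair iPS cells lay between the other groups (-0.98 ± 0.29 against ES, edgeR adjusted p = 0.0504). The pair with a fragment of Arhgef11 234.9 kb below (87510190 to 87522826) had 4.14 and 5.04 in ES, 1.16 and 0.786 in NPC and 1.25 and 1.90 in iPS cells. It fell by 2.24 ± 0.40 in NPC and by 1.54 ± 0.38 in iPS against ES cells (edgeR adjusted p = 5.56e-04 and 0.0192). The pair with a fragment 29.9 kb below (87721335 to 87721759) fell by 1.95 ± 0.35 in NPC (edgeR adjusted p = 6.72e-04). Its values were 1.21 and 1.05 in ES, 0.398 and 0.189 in NPC, 0.507 and 0.491 in iPS and 0.377 and 0.42 in ES cells in 2i. Here iPS cells and ES cells in 2i stayed below ES cells.

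The 1 pair that rose in NPC joined Crabp2 to the adjoining fragment on the Nes side, 7.1 kb between centres. Its count over expected was 1.80 and 1.86 in ES, 2.58 and 4.05 in NPC, 1.79 and 1.72 in iPS cells and 2.46 and 2.90 in ES cells in 2i. The NPC libraries lay above both ES and both iPS libraries (0.86 ± 0.24 against ES, edgeR adjusted p = 0.0165).

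From NPC to iPS cells, 8 pairs rose and 1 fell (background 4.86% higher and 1.99% lower), 7 of the rises on the lower side. They included the fragment of Isg20l2 14.1 kb below (0.304 and 0.242 in NPC, 0.535 and 0.607 in iPS cells, 1.06 ± 0.26 in log2, edgeR adjusted p = 0.0168). Both this contrast and NPC against ES use the same NPC libraries. Between iPS and ES cells, 3 pairs fell and none rose (background 1.48% lower and 3.71% higher), all on the lower side, at 29.9, 160.7 and 234.9 kb. In the 2i response of ES cells, 6 fell and none rose (background 5.42% lower and 6.58% higher).

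In 2i medium, no pair was called between iPS and ES cells by edgeR, with 6 at an unadjusted p under 0.05, and none of all 75889 pairs was called (0.0%). For the 2i response of iPS cells, none was called, with 6 at an unadjusted p under 0.05 (background 0.0474%). For the difference of the 2i responses, none was called and 11 had such a p (background 1.95%). DESeq2 called 0, 0 and 1 pair in these contrasts.

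Counts of called pairs depended on the number of libraries and on the reference. Without ES replicate 1, ES replicate 2 or NPC replicate 2, the calls in NPC against ES cells were 14, 16 and 15. Between iPS and ES cells, 3 calls became 0 without any 1 of their 4 libraries outside 2i and 6 without either NPC library. From NPC to iPS cells, calls went from 9 to 3, 2, 1 and 3 without NPC replicates 1 and 2 and iPS replicates 1 and 2, and to 5 without either library of ES cells in 2i. For the 2i response of ES cells, 6 calls became 2, 2, 0 and 2 without ES replicates 1 and 2 and ES in 2i replicates 1 and 2. With each pair set against its region total in place of its distance class, 46 pairs were called in NPC against ES cells, 1 of them higher, and 45 from NPC to iPS cells, 43 of them higher.

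**Figure D5:**
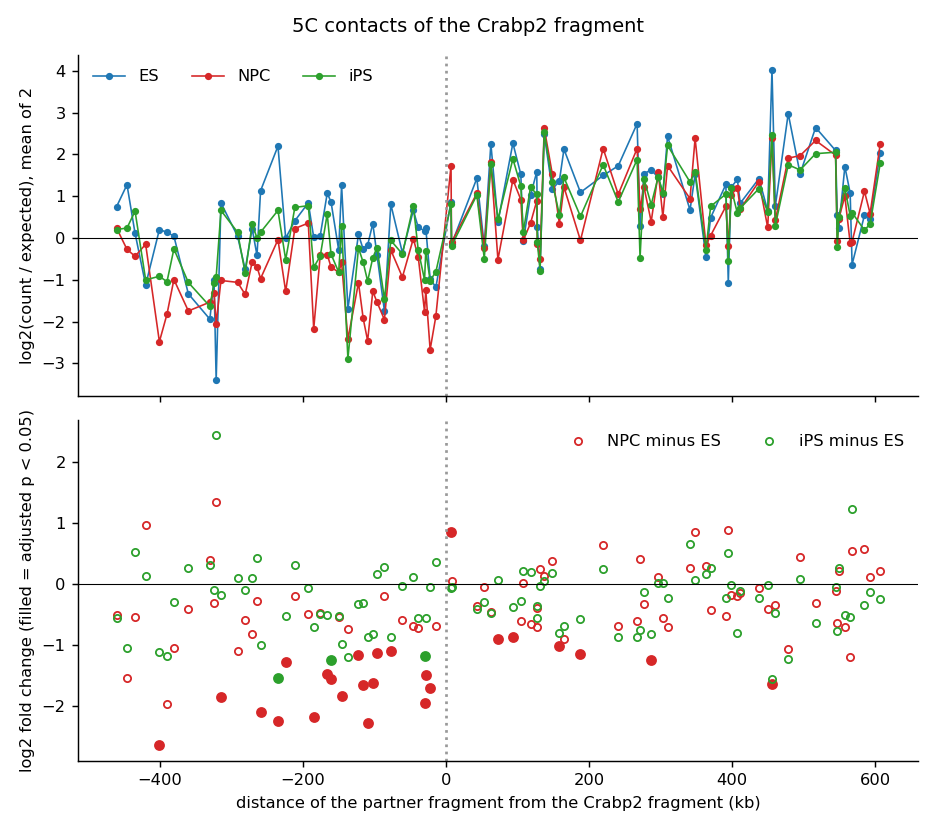
Top, log2 of count over expected count for the 94 tested pairs of the Crabp2 fragment, as group means of 2 libraries in ES, NPC and iPS cells, by distance to the partner fragment (negative, lower coordinates). Bottom, log2 fold changes of the same pairs, filled where the adjusted p passed 0.05: 18 of the 24 filled NPC falls lie at negative distances.

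Several partners that hold a gene named above gave no call. The Bcan fragment 43.2 kb above differed by -0.36 ± 0.24 in NPC against ES cells (edgeR adjusted p = 0.329), although Bcan RNA rose strongly there. The best counted Lmna fragment, 544.8 kb above, differed by -0.11 ± 0.37 in NPC and did not pass between iPS and ES cells (edgeR adjusted p = 0.966), where both genes had more RNA. Fragments of Iqgap3, a cytoskeletal scaffold gene, included a partner at 137.4 kb whose count over expected was 4.93 to 6.88 in the 10 libraries. Of the 5 pairs with the highest mean ratio over 20 kb apart, all were on the higher side, at 137.4 to 516.9 kb, and the highest, with a Pmf1 fragment at 455.9 kb, had 14.2 and 18.2 in ES and 2.6 to 8.17 in the other libraries. That pair fell in NPC by 1.63 (edgeR adjusted p = 0.0213), and its difference between iPS and ES cells, -1.56, did not pass (edgeR adjusted p = 0.0586).

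The fragment that holds Nes also carries a reverse primer, so no pair joins it to the Crabp2 fragment. The authors' binned contact values average fragments over 20 kb at steps of 4 kb, on a log scale whose base is not stated. Values between the Crabp2 and Nes bins therefore rest on pairs with other fragments. They do not measure ligation of the Crabp2 fragment to the Nes fragment. After subtraction of the mean at the same distance, the bin of Crabp2 and that of Nes had -1.39 and -1.45 in ES, -0.06 and -0.09 in NPC, -0.73 and -0.65 in iPS, -0.50 and -0.19 in ES in 2i and -0.47 and -0.73 in iPS cells in 2i. NPC values lay above all others and ES values below. The rise in NPC was 1.34 (limma adjusted p = 6.88e-04), and iPS cells were 0.74 above ES (limma adjusted p = 0.0301) and 0.61 below NPC (limma adjusted p = 0.0307). These bins are 20 kb apart and share fragments near their border. For the Lmna bin, no contrast passed. Of the bin pairs of Crabp2, 273 complete ones lay on the lower side, where 84 fell and 8 rose in NPC against ES cells, and 384 on the higher side, where 6 fell and 70 rose (background 16.4% of 152941 bin pairs called higher and 16.3% lower). From NPC to iPS cells, 62 on the lower side rose and none fell (background 8.97% higher and 10.3% lower). Between iPS and ES cells, 14 and 30 rose on the lower and higher sides and 0 and 4 fell (background 4.15% higher and 3.59% lower), whereas the single pairs gave 3 falls and no rise. In the 2i response of ES cells, 44 bin pairs rose and none fell on the lower side, and 16 rose and 19 fell on the higher side (background 10.8% higher and 10.9% lower), whereas the single pairs gave 6 falls and no rise. The calls in these 2 contrasts thus differed in direction between single pairs and the authors' bins, but the called pairs were few. Those of NPC against ES cells differed as well on the higher side. There, 6 of 52 single pairs fell and 1 rose (median log2 -0.32), whereas 70 of 384 bin pairs rose and 6 fell (median 0.22). The share of these bin pairs that rose is near the background of 16.4%. Over the 94 tested pairs, the median log2 change was -0.24 for iPS against ES cells, and 0.18 over the bin pairs. For the 2i response of ES cells it was -0.12, with -0.01 on the lower side, and 0.14 over the bin pairs.

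The authors' classes of bin pairs, which rest on the 6 libraries outside 2i, covered 175 pairs with a Crabp2 bin. Of these, 158 were background (90.3% against 69.2% of all classified bin pairs) and 6 were NPC only (3.43% against 14.8%). A further 4 were ES only (2.29% against 8.08%), 4 iPS only (2.29% against 4.48%) and 3 shared by NPC and iPS cells (1.71% against 0.624%). None was classed as shared by all groups or as shared by ES and iPS cells, classes that held 1.09% and 1.36% of all classified bin pairs, so that 0 of 175 is near the background. Every bin pair in a class other than background lay on the higher side, at 244.0 to 528.0 kb. Those shared by NPC and iPS cells lay near Cct3, at 340.0 to 348.0 kb. The lower side held 146 classified pairs, all background. Bins at steps of 4 kb overlap, so neighbouring bin pairs are not separate contacts. In the Nestin region as a whole, 67.9% of classified bin pairs were background and 17.0% NPC only.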

How the data were processed

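The members and the gene lists were chosen with earlier results of these data known. The authors deposited whole-number counts of RNA reads per transcript model from a stranded, ribosome-depleted total RNA kit (350 ng, 75 cycles per end, per the labels' protocols). Per the submitters' processing notes, RNA processing used TopHat2 2.1.0, TopHat, HTSeq and mm9, and 5C processing Bowtie and mm9. The counting mode is not given in the sources used here. Reads that overlapped several models were not assigned to one (6.0% to 35.6%). The deposited expression table holds log2 values, log2(count + 1) minus a constant per library for all 11767 rows within 0.01, and was used for names and positions. For 5C (1% formaldehyde, HindIII), the authors deposited counts per primer pair, binned contact values on a log scale whose base is not stated, read here as log2, and classes of bin pairs.

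The RNA model was edgeR 4.0.16's quasi-likelihood fit (TMM, low-count filter, prior count 2) over all 10 libraries in R 4.3.3, with 5 residual degrees of freedom. The filter kept 11031 models and left out 44388. The 5C fits used the same test on 75889 pairs with a mean count of at least 10, with the total of the library, region and 1 of 20 distance strata as offset. Coefficients of variation were 0.117 and 0.326. The adjusted p threshold was 0.05 (Benjamini-Hochberg). Binned values were fitted with limma 3.58.1. Scripts were tested on simulated data. Named were Crabp2, listed genes with the largest changes past the threshold and a fixed set of retinoid genes, the 8 models most like Crabp2, the nearest 4 neighbours on each side with Nes and Lmna, and pairs with the smallest adjusted p, with a named gene or with the highest ratios. Further binned tables and the authors' 6-library values were not used, and 2 genes that the naming rule picks are not reported here. Alternatives were DESeq2 1.42.0, other filters, offsets and a replicate block, and leaving out each library. Same-numbered replicates deviated together with r of -0.08 to 0.072 (RNA) and -0.043 to 0.164 (5C), so the numbers were not taken to pair samples.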

Additional observations from a re-analysis of the deposited data

Results flagged for a closer look

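Among the retinoid genes other than Crabp2, 15 of the 31 tested had a response that differed between the 2 cell types by the interaction term of the edgeR fit. The values that follow are the 2i response of iPS cells minus that of ES cells in log2. The response was more negative in iPS cells for Fabp5 (-0.96), Aldh1a2 (-1.80), Rxra (-0.98), Ncoa2 (-1.85), Ski (-0.59), Hoxa4 (-3.78), Meis2 (-4.36), Cdx1 (-1.25) and Tgm2 (-2.01). It was more positive for Adh5 (1.17), Aldh1a3 (5.04), Ncoa3 (1.63), Ep300 (0.71), Gbx2 (0.61) and Nr0b1 (1.53). Aldh1a3, Meis2 and Ncoa2 rest on few reads. Over all models, 27.3% passed the same test.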

How the results depend on the processing

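The fall of Crabp2 RNA in 2i kept its direction and call under all 16 alternatives, from -1.43 to -1.27 in ES cells (edgeR or DESeq2 adjusted p at most 2.34e-04) and from -1.55 to -1.34 in iPS cells, and the iPS values stayed between 4.19 and 4.49 over ES cells and between 4.17 and 4.37 in 2i. Contrasts with NPC rest on 1 read: the fitted value for iPS against NPC went from 8.72 to 14.69 when 1 library was left out and to 14.76 without NPC replicate 1 and ES replicate 2 together, an alternative chosen after seeing the data. The lower-side 5C total kept both calls in its 11 alternatives, at -1.33 to -1.28 for NPC against ES and 0.95 to 1.05 for iPS against NPC. All of these use the split by side, which was chosen after the single pairs had been seen. The total over both sides was -0.47 to -0.24 for NPC against ES, with its call lost in 3 of 12. Called Crabp2 pairs ranged, with 1 library left out, from 14 to 26 for NPC against ES, from 1 to 8 for iPS against NPC, from 0 to 6 for iPS against ES and from 0 to 7 for the 2i response of ES cells. With the region total as offset they were 46 and 45 in the first 2. For iPS against ES they were 5 with a mean count of at least 30, 7 by DESeq2 and 6 with a replicate block, and for the difference of the 2i responses 1 by DESeq2. The replicate block changed no call of Crabp2 RNA or of a 5C total. Called bin pairs, a different unit, were 169, 81, 48, 79 and 5. Retinoid genes called were 3 for iPS against ES in 2i without a low-count filter and 13 by DESeq2 for the 2i response of iPS cells. With 1 library left out they ranged from 2 to 5, from 11 to 21 in that response and from 8 to 13 in that of ES cells. The cause was not tested. RNA depth limits NPC most, with 1.15M assigned reads in replicate 1.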
